A study of Mus musculus with 6 samples.

Results

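The genes described here are all those encoded by mitochondrial DNA: every row of the deposited count table that lies on the mitochondrial chromosome. There were 37 of them among 49671 gene rows, of which 13 give messenger RNAs, 2 give ribosomal RNAs and 22 give transfer RNAs, and the coordinates and strand of 37 of 37 were the same in the GENCODE M21 annotation of mm10. The RNA came from whole testes of juvenile C57BL/6J mice at 12 days post-partum. Wild-type mice (Ankrd31+/+, n = 3 libraries) were compared with mice lacking Ankrd31 (Ankrd31-/-, n = 3), and no other allele or treatment is named in the labels. The protein made from Ankrd31 works in the formation of meiotic DNA double-strand breaks, and the sources used here do not give which part of the gene was removed. Whole testis mixes germ cells, Sertoli cells, Leydig cells and other somatic cells, so fewer cells of a type and less RNA per cell cannot be told apart.

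Mitochondrial DNA is a small circle, and a dedicated RNA polymerase reads both of its strands as long transcripts. The tRNAs sit like punctuation between most of the other genes, and their excision releases the rRNAs and mRNAs, which are then tailed, translated or degraded at different rates. All of its mRNAs encode subunits of the respiratory chain or of ATP synthase, and its rRNAs and tRNAs serve the ribosomes that translate those mRNAs within the organelle. In the testis, germ cells are known to rely more on respiration as they go through meiosis.

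The compact layout shows in the sequences where neighbouring genes share bases, which matters here because a read lying in such a stretch fits both genes. Where the genes lie on opposite strands, this holds only if the counting ignored strand. Neighbouring mRNA genes overlapped in 4 places. The first 3 stretches below show those longer than 1 base, written on the plus strand of mm10 with the shared bases in capitals. The last of these lies between genes on opposite strands, so that mt-Nd6 is antisense to mt-Nd5 there.
mt-Atp8 and mt-Atp6, chrM:7917-7979: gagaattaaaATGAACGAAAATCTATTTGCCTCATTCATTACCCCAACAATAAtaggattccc
mt-Nd4l and mt-Nd4, chrM:10147-10193: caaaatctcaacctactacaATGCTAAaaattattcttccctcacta
mt-Nd5 and mt-Nd6, chrM:13532-13585: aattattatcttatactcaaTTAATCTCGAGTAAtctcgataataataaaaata
The shared stretches are 43, 7 and 14 bases long, and the overlap not shown is the 1 base that ends mt-Atp6 and starts mt-Co3. The kit kept strand, but the sources used here give neither the strand setting of the counting nor its treatment of reads in 2 genes. The counts of overlapping genes are therefore uncertain, most of all for mt-Atp8, whose whole length is 204 bases. The tRNA genes are 59 to 75 bases long. The 2 with the most counts, mt-Ti (isoleucine) and mt-Tw (tryptophan), share their first bases with the ends of mt-Nd1 and mt-Nd2, shown in capitals together with the bases that mt-Ti shares with mt-Tq at its other end.
mt-Ti, chrM:3706-3774: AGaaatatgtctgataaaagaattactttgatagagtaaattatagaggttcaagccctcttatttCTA
mt-Tw, chrM:4950-5016: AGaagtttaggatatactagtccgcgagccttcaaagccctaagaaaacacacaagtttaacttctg
The tRNAs that frame the small-subunit rRNA, mt-Tf (phenylalanine) and mt-Tv (valine), are shown for contrast, because neither had a single count in any library.
mt-Tf, chrM:1-68: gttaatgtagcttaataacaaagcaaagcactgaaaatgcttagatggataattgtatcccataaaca
mt-Tv, chrM:1025-1093: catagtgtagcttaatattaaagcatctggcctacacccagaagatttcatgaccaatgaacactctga
The mRNA genes held 31.9% to 41.1% G and C. In 3 of 13, mt-Co3, mt-Nd4 and mt-Cytb, the annotated length was no multiple of 3 and the gene ended in T, the layout in which the stop codon is completed by the added A of the tail.

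A stretch of mitochondrial sequence also lies in the nuclear genome, and it touches the level of several members. On mm10 chromosome 1, minus strand, 7 annotated unprocessed pseudogenes lay within 4663 bases (24611535 to 24616197), in the order of their mitochondrial counterparts. Gm28661, Gm10925, Gm28437 and Gm10222 had no mismatch to mt-Co2, mt-Atp6, mt-Co3 and mt-Nd4l over 681, 678, 783 and 294 bases. Gm28439 had none to mt-Nd4 over 876 bases, and Gm28438 had 1 to mt-Nd3 over 345 bases. A stretch of mt-Co2 that is the same in Gm28661 is given first, and then the start of Gm29216, the copy of mt-Co1, with the bases that differ between the pair in capitals.
mt-Co2 and Gm28661, chrM:7313-7372: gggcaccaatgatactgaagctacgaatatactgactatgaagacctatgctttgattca
mt-Co1, chrM:6381-6408: ggTCtAAcCggaAttgttttatccaact
Gm29216, chr1:24616170-24616197, minus strand: ggATtGGcAggaTttgttttatccaact
All 6 mismatches of Gm29216 fell in its first 13 bases, and the remainder of its 492 bases matched mt-Co1. As a measure of how far each member is copied, the share of its 50-base windows also found in an annotated nuclear transcript, on chromosome 1 or elsewhere, was counted. It was 100% for mt-Co2, 99.9% for mt-Co3, 99.5% for mt-Atp6, 98.8% for mt-Nd4l and 98.0% for mt-Nd3. It was 62.2% for mt-Nd4 and 51.1% for mt-Co1, between 1.04% and 8.19% for mt-Nd2, mt-Nd5 and mt-Rnr2, and 0.0% for mt-Cytb, mt-Nd1, mt-Nd6, mt-Rnr1 and mt-Atp8. For mt-Atp8 the 0 covers annotated transcripts only, since the 233 bases between Gm10925 and Gm28661 hold no annotated gene, where the mitochondrial genes flanking mt-Atp8 lie 230 bases apart. A read that matches both places may have been counted at either, split or dropped. The sources used here do not say which was done, and counts of these members are uncertain.

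Mitochondrial mRNAs took 1.41% to 1.92% of all counts, and mitochondrial rRNAs 0.063% to 0.0985%. In CPM, which are counts scaled to a common effective library size (TMM), the wild-type sums over 13 mRNAs were 15872 ± 1702 (SD, n = 3), over 2 rRNAs 704 ± 72.8 and over 22 tRNAs 2.85 ± 0.76. The sources used here do not give whether poly(A) RNA was selected or rRNA was removed, so the order of the classes describes these libraries and not the cells. The rRNAs are among the most abundant RNAs of mitochondria in general, whereas here the rRNA counts were 4.41% to 5.35% of the mRNA counts.

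Per length (RPKM, the CPM divided by the gene's length in kilobases), mt-Co1, the catalytic subunit of cytochrome c oxidase, led with 3264 ± 475 in wild type and 3926 ± 190 in the knockout. It was followed by mt-Cytb, the mitochondrially encoded subunit of the cytochrome bc1 complex, at 2791 ± 247 and 3366 ± 91.7, and by mt-Nd1, a membrane subunit of NADH dehydrogenase, at 2677 ± 273 and 3052 ± 181. These 3 stood apart from the next gene in each genotype. The order mt-Co1, mt-Cytb, mt-Nd1, mt-Nd2, mt-Nd5, mt-Nd4, mt-Rnr2, mt-Atp6 was the same in 6 of 6 libraries, although the wild-type ranges of mt-Co1 and mt-Cytb, of mt-Cytb and mt-Nd1, of mt-Nd2 and mt-Nd5, and of mt-Rnr2 and mt-Atp6 overlapped. In wild type mt-Nd2 reached 1272 ± 91.4, mt-Nd5 1156 ± 119 and mt-Nd4 790 ± 84.5 RPKM, and mt-Nd4 lay above mt-Rnr2 (305 ± 36.3) without overlap.

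Lower in the order, neighbouring members could often not be ranked. In wild-type RPKM, mt-Atp6 had 263 ± 20.9, mt-Co3 246 ± 10.3 and mt-Rnr1 232 ± 17.4, each overlapping the next. They were followed, without overlap, by mt-Co2 at 159 ± 24.8, then by mt-Nd6 at 70.8 ± 8.52 and mt-Nd3 at 68.3 ± 9.83, which overlapped each other. The lowest were mt-Nd4l at 36.3 ± 5.32 and mt-Atp8 at 21.7 ± 2.32. Of the 7 mRNAs below mt-Rnr2, the 5 with over 90% of windows shared with the nuclear copies were all present, and the other members were mt-Nd6, the only mRNA read from the opposite strand, and mt-Atp8. Adding the counts of the chromosome 1 copies raised wild-type RPKM to 417 ± 63.8 for mt-Co2, 527 ± 39.4 for mt-Atp6, 399.5 ± 9.57 for mt-Co3, 95.7 ± 8.61 for mt-Nd3 and 61.2 ± 6.45 for mt-Nd4l, all still below mt-Nd4 without its copy. The part of the copies in the low levels was not tested.

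**Figure D1:**
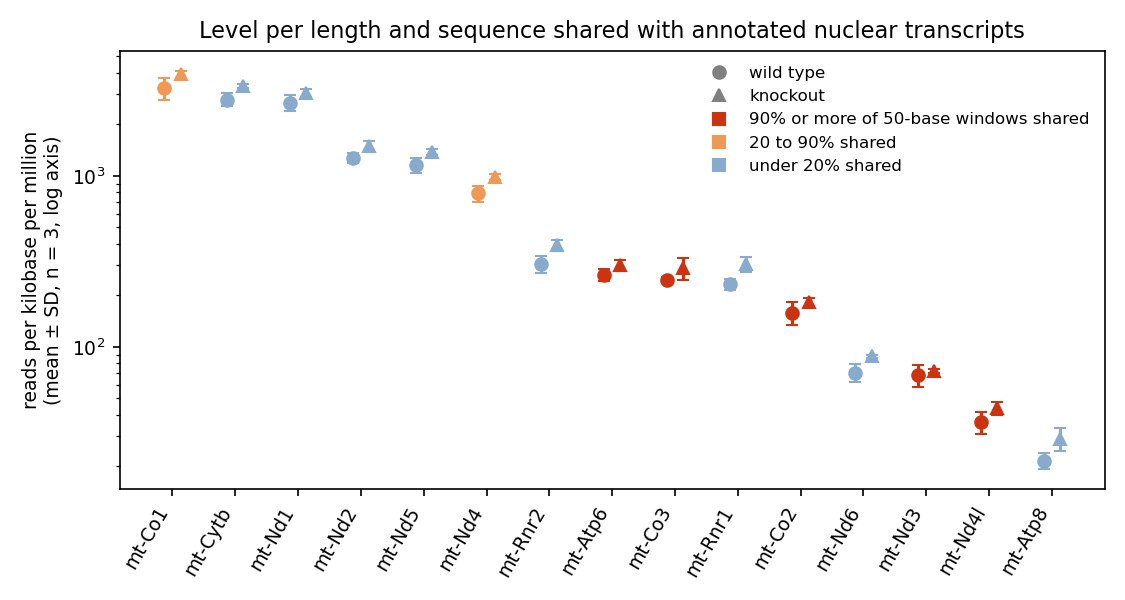
Level of the 13 mitochondrial mRNAs and 2 rRNAs in RPKM (log axis; mean with SD over 3 libraries, circles for wild type and triangles for the knockout), coloured by the share of each gene's 50-base windows that also occur in annotated nuclear transcripts. The 5 mRNAs with over 90% shared windows lie between 36.3 and 263 RPKM in wild type, and the 5 most abundant mRNAs have shares from 0.0% to 51.1%.

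Neighbouring genes differed widely in level within each library. Per base, mt-Atp6 had 8.23 to 12.9 times the count of mt-Atp8, with which it shares a messenger, and mt-Nd4 had 20.9 to 23.9 times that of mt-Nd4l, its partner in the other shared messenger. The lowest ratio of mt-Atp6 to mt-Atp8 was in knockout replicate 3. The large-subunit rRNA mt-Rnr2 had 1.25 to 1.4 times the count per base of the small-subunit rRNA mt-Rnr1, and mt-Nd5 had 14.8 to 17.3 times that of mt-Nd6, which is read from the other strand. The share of all mitochondrial mRNA counts held by mt-Co1 stayed between 30.0% and 34.4%.

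With Ankrd31 lost, each class had a higher mean than in wild type, and none of the 17 members with enough counts to be tested changed at the adjusted threshold. Summed mRNA was 14008, 17346 and 16261 CPM in wild-type replicates 1 to 3 and 19233, 18814 and 18612 CPM in knockout replicates 1 to 3. Every knockout library lay above every wild-type library, and wild-type replicate 1 was the lowest. The ratio of the means was 1.19 (0.25 on the log2 scale), and within pairs of the same number the log2 ratios were 0.46, 0.12 and 0.20. As a share of all counts the mRNAs made up 1.59% ± 0.17 in wild type and 1.88% ± 0.04 in the knockout. With 3 against 3 an exact permutation test cannot go below p = 0.1, so the sums carry no test of their own.

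Summed rRNA stood higher by a slightly larger ratio. The wild-type libraries had 626, 769 and 717 CPM and the knockout libraries 891, 856 and 995 CPM. The groups did not overlap, and knockout replicate 3 was the highest. The ratio of the means was 1.3 (0.38 on the log2 scale), with 0.51, 0.15 and 0.47 in the pairs. Set against the mRNA of the same library, rRNA counts were 4.47%, 4.44% and 4.41% in wild type and 4.63%, 4.55% and 5.35% in the knockout. The genotypes again did not overlap, but the knockout values spread more widely (SD 0.44 against 0.03), and replicate 3 lay well above the other two. Summed tRNA was 2.63, 3.69 and 2.23 CPM in wild type against 3.32, 3.71 and 3.24 CPM in the knockout, with groups that overlapped and log2 ratios of 0.34, 0.01 and 0.54 in the pairs.

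**Figure D2:**
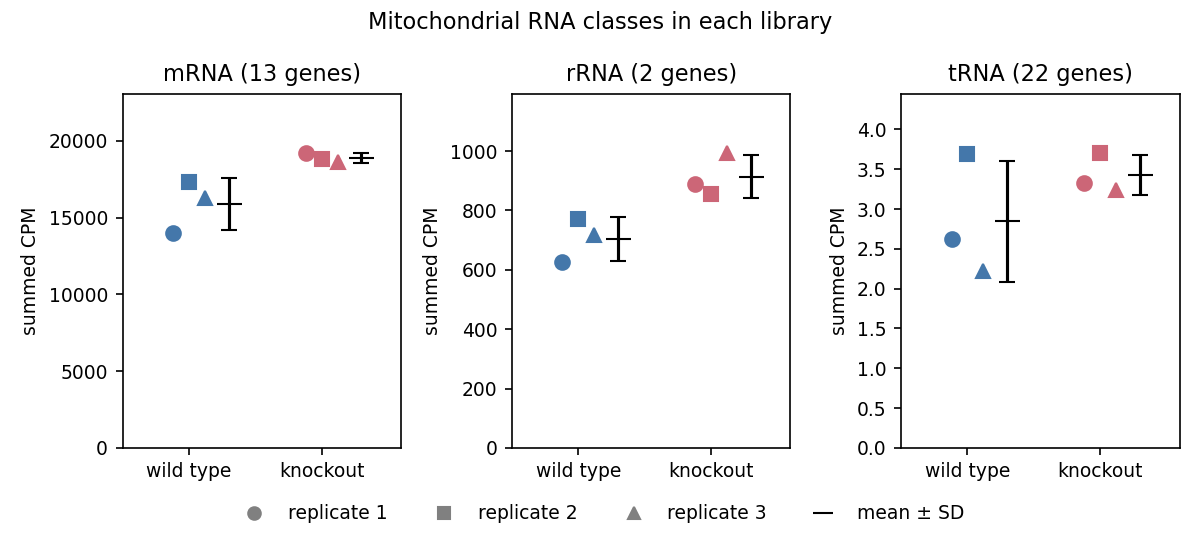
Summed CPM of the 13 mRNAs, the 2 rRNAs and the 22 tRNAs in each library, with a separate scale per class; symbols mark the replicate number and lines beside them the mean with SD (n = 3). All 3 knockout libraries lie above all 3 wild-type libraries for mRNA and rRNA, and the groups overlap for tRNA.

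Across the 18040 genes tested with edgeR's quasi-likelihood test, 0 genes (0.0%) had an adjusted p under 0.05 and 374 an unadjusted one. DESeq2 called 2 genes and 0 members. The adjusted p from edgeR was 1 for 17 of 17 members. The fitted change was above 0 in 17 of 17 members, where 47.8% of all tested genes were above 0. The median log2 fold change was 0.25 over 13 mRNAs, 0.38 over 2 rRNAs and 0.42 over the 2 tested tRNAs, against a median of -0.005 over all tested genes. An unadjusted p under 0.05 was found for 12 of 17 members (9 mRNAs, 2 rRNAs and 1 tRNA), all of them higher in the knockout, where 0.843% of all tested genes were higher with such a p, 1.23% were lower and 2.07% were in either direction. All 3 knockout libraries lay above all 3 wild-type libraries in 11 of 17 members, against 3.09% of all tested genes, and below them in 0 members, against 3.5%. Members come from a few shared transcripts and were measured in the same 6 libraries, so the 17 values are not separate tests of the genotype.

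The replicate numbers moved with the size of the difference. The median log2 ratio of knockout to wild type over the tested members was 0.51 for pair 1, 0.10 for pair 2 and 0.21 for pair 3, while the medians over all tested genes lay within 0.003 of 0 in each pair. The ratio was above 0 in 3 of 3 pairs for 14 of 17 members, against 13.9% of all tested genes. Wild-type replicate 1 was the lowest library in 16 of 17 members, among them 13 of 13 mRNAs, and wild-type replicate 2 was the highest wild-type library in 15 of 17. Without wild-type replicate 1 the median over members fell from 0.27 to 0.18. In that fit 6 of 17 members had an unadjusted p under 0.05, where 1531 of 18341 tested genes did in either direction. Without knockout replicate 1 the number of members was also 6, where 269 of 18356 tested genes had such a p. Leaving out any other single library gave 9 to 14 members, where 268 to 410 tested genes had such a p.

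With the replicate number as a block, 8 of 18040 genes passed (0.0443%), 6 of them higher (0.0333%), and none was a mitochondrial gene. The smallest adjusted p among members was 0.0775, for mt-Rnr1, and the smallest among mRNAs was 0.202, for mt-Cytb. An unadjusted p under 0.05 was found in this fit for 13 of 17 members, all of them higher, where 3.59% of all tested genes were higher with such a p and 3.89% lower. Pair 2 had the smallest median ratio over members. When it was left out of the blocked fit, which leaves 1 residual degree of freedom, 6 members passed, against 0.16% of tested genes higher. These were mt-Rnr1, mt-Rnr2, mt-Co1, mt-Nd5, mt-Nd6 and mt-Cytb, with log2 changes of 0.50, 0.49, 0.38, 0.32, 0.44 and 0.34. Leaving out pair 1 in its place gave 0 members, where 63 genes passed in either direction. Leaving out pair 3 gave 0 members and 0 genes.

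**Figure D3:**
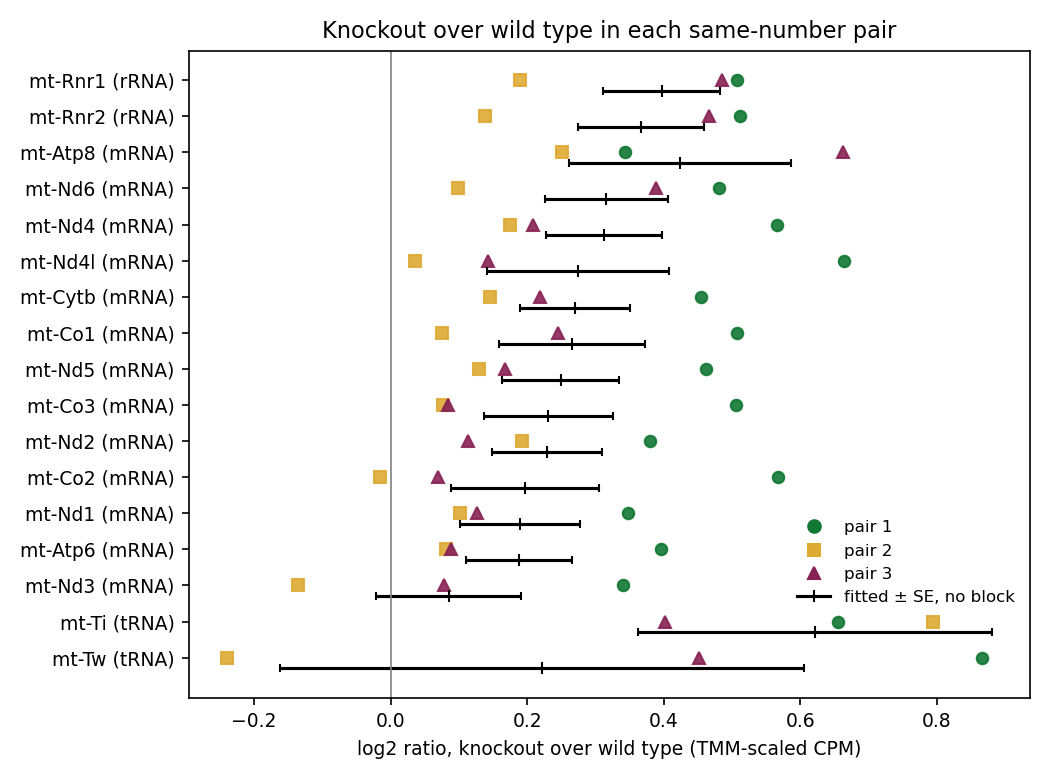
Log2 ratio of knockout to wild type in CPM for each of the 17 tested mitochondrial genes (symbols, one per pair of libraries with the same replicate number), with the edgeR log2 fold change and its SE below them. Pair 1 gives the highest value in every mRNA except mt-Atp8, and only mt-Nd3, mt-Co2 and mt-Tw have a value below 0, each in pair 2.

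Both rRNAs form the core of the mitochondrial ribosome, mt-Rnr1 in its small and mt-Rnr2 in its large subunit. The level of mt-Rnr1 was 203, 232 and 231 CPM in wild type against 288, 265 and 324 CPM in the knockout. Each knockout library exceeded each wild-type library, and the means were 222 ± 16.7 and 292 ± 29.8. Fold changes and p-values of single genes from here on come from the fit without the block unless another fit is named. The edgeR log2 fold change of mt-Rnr1 was 0.40 ± 0.09 (SE), with an unadjusted p of 0.000988 and an adjusted p of 1. With the block it was 0.39 ± 0.06 (edgeR, unadjusted p = 7.3e-05). The level of mt-Rnr2 was 423, 538 and 486 CPM in wild type against 603, 592 and 671 CPM in the knockout. It showed the same separation of the genotypes, with means of 482 ± 57.4 and 622 ± 43.1 and a log2 fold change of 0.37 ± 0.09 (edgeR, unadjusted p = 0.00264). For both genes knockout replicate 3 was the highest library, and pair 2 had the smallest ratio (0.19 and 0.14).

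NADH dehydrogenase (complex I) takes 7 of the 13 mRNAs, whose sum was 7150 ± 681 CPM in wild type and 8409 ± 408 CPM in the knockout. The level of mt-Nd1 was 2339, 2849 and 2496 CPM in wild type against 2976, 3059 and 2726 CPM in the knockout, and that of mt-Nd2 was 1232, 1421 and 1307 against 1604, 1624 and 1414 CPM. In both genes knockout replicate 3 fell below wild-type replicate 2, so the groups overlapped. Their log2 fold changes were 0.19 ± 0.09 and 0.23 ± 0.08. The proton-pumping subunits encoded by mt-Nd4 and mt-Nd5 kept the groups apart. They had 955, 1168 and 1143 CPM (mt-Nd4) and 1881, 2314 and 2132 CPM (mt-Nd5) in wild type. In the knockout they had 1414, 1319 and 1320 CPM (mt-Nd4) and 2591, 2533 and 2395 CPM (mt-Nd5). The log2 fold changes were 0.31 ± 0.09 for mt-Nd4 (edgeR, unadjusted p = 0.00448) and 0.25 ± 0.09 for mt-Nd5.

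The small complex I genes showed both extremes. For mt-Nd6 the values were 33.4, 41.7 and 35.1 CPM in wild type against 46.6, 44.7 and 45.9 CPM in the knockout. This gene, read from the strand opposite to all other mRNAs, had a narrow knockout range, and its log2 fold change was 0.32 ± 0.09 (edgeR, unadjusted p = 0.00571). For mt-Nd4l they were 8.97, 11.6 and 11.8 CPM against 14.2, 11.9 and 13.0 CPM, separated by little, with a log2 fold change of 0.27 ± 0.13. For mt-Nd3 they were 20.6, 27.4 and 23.3 CPM against 26.1, 24.95 and 24.6 CPM. Wild-type replicate 2 was here the highest of all libraries, the ratio in pair 2 was -0.14 on the log2 scale, and the fitted change of 0.09 ± 0.11 had an unadjusted p of 0.443. Without wild-type replicate 1 the fitted change of mt-Nd3 was -0.008.

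The single mRNA of the cytochrome bc1 complex (complex III), mt-Cytb, had 2893, 3455 and 3233 CPM in wild type against 3967, 3823 and 3763 CPM in the knockout. All knockout values exceeded all wild-type values, and the knockout spread was small (3193 ± 283 against 3851 ± 105). Its log2 fold change was 0.27 ± 0.08 (edgeR, unadjusted p = 0.0076). No window of mt-Cytb was shared with an annotated nuclear transcript.

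Cytochrome c oxidase (complex IV) has 3 mitochondrial mRNAs, which encode its catalytic core. For mt-Co1 the wild-type values were 4200.0, 5535 and 5394 CPM and the knockout values 5974, 5829 and 6393 CPM. The lowest knockout library lay just above the highest wild-type library, and the log2 fold change was 0.27 ± 0.11 (edgeR, unadjusted p = 0.0317). For mt-Co2 the values were 90.01, 123.2 and 112 CPM against 133, 122 and 118 CPM. The groups overlapped, pair 2 differed by -0.02 on the log2 scale, and the log2 fold change was 0.20 ± 0.11. For mt-Co3 the values were 185, 201 and 192 CPM against 263, 212 and 203 CPM. Knockout replicate 1 stood above the other knockout libraries, which lay close to wild-type replicate 2, and the log2 fold change was 0.23 ± 0.09.

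ATP synthase (complex V) takes its subunits a and 8 from mt-Atp6 and mt-Atp8. For mt-Atp6 the values were 166, 194 and 178 CPM in wild type against 218, 205 and 189 CPM in the knockout. Knockout replicate 3 lay below wild-type replicate 2, and the log2 fold change was 0.19 ± 0.08. For mt-Atp8 the values were 3.98, 4.93 and 4.36 CPM against 5.05, 5.86 and 6.89 CPM, from 88 to 153 counts per library. Here knockout replicate 3 was the highest and the groups did not overlap, with a log2 fold change of 0.42 ± 0.16 (edgeR, unadjusted p = 0.0267). Although the genes share a messenger, knockout replicate 3 was the lowest knockout library for mt-Atp6 and the highest for mt-Atp8.

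The 22 tRNAs together had 415 counts in 6 libraries. The 14 encoded on the plus strand took 385 of these and the 8 on the minus strand 30, and 10 tRNAs had no count in any library, which allows up to 0.132 to 0.142 CPM each per library (3 counts, counting error only). Only mt-Ti and mt-Tw, with 75.2% of all tRNA counts, passed the filter on low counts. The counts of mt-Ti were 23, 18 and 18 in wild type and 36, 30 and 25 in the knockout, which gave 1.04, 0.79 and 0.85 against 1.64, 1.37 and 1.13 CPM. The groups were separated, and the log2 fold change was 0.62 ± 0.26 (edgeR, unadjusted p = 0.0376). The counts of mt-Tw were 16, 43 and 16 in wild type and 29, 35 and 23 in the knockout. Wild-type replicate 2 was the highest library, the fitted change was 0.22 ± 0.38, and it was -0.017 without wild-type replicate 1. The next tRNAs were mt-Tt (threonine) with counts of 1, 15 and 5 against 2, 4 and 7, and mt-Tm (methionine) with 10, 1 and 4 against 3, 5 and 10. These 2 and the remaining 18 tRNAs were not tested, and their counts do not resolve a difference between the genotypes. How short fragments were treated in library making was not stated in the labels.

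The nuclear copies had fitted changes in the same direction as their mitochondrial counterparts. Of 15 nuclear genes that shared a window with a member, 12 were tested and none passed. The fitted change was above 0 in 12 of 12, where 47.8% of all tested genes were above 0. Reads of a member may have been counted at its copy, so the copies are not separate measurements. Their log2 fold changes ran from 0.24 to 0.39 with a median of 0.26. Gm28661 had 3320, 4646 and 3705 counts in wild type and 5048, 4485 and 4278 in the knockout, 1.63 and 1.68 times the counts of mt-Co2. As in mt-Co2, replicate 1 held both the lowest wild-type and the highest knockout value. For Gm10925 and mt-Atp6 the ratio was 1.0 in wild type and 1.05 in the knockout, and for Gm28437 and mt-Co3 it was 0.624 and 0.631. The copy of mt-Nd4 had 0.0334 times the counts of mt-Nd4 in wild type and 0.0335 in the knockout. The 5 mRNAs with over 90% shared windows summed to 515 ± 43.5 CPM in wild type and 593 ± 55.3 CPM in the knockout (0.20 on the log2 scale). The other 8 mRNAs, which include the partly copied mt-Co1 and mt-Nd4, summed to 15356 ± 1659 and 18293 ± 261 CPM (0.25). In the pairs the log2 ratios were 0.48, 0.05 and 0.08 for the first sum and 0.46, 0.12 and 0.20 for the second. The part of shared reads in these sums was not tested.

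Nuclear genes that serve mitochondrial DNA and its transcripts were counted beside the members. Of 18 tested genes of mitochondrial transcription and replication, 10 were above 0 and 8 below, with a median log2 fold change of 0.004, and 0 passed. Tfam, which packages mitochondrial DNA and activates its promoters, had 0.04 ± 0.07, and the polymerase gene Polrmt had -0.006 ± 0.074. The smallest p in the list belonged to Mterf1b (-0.29 ± 0.24) and Ssbp1 (-0.08 ± 0.09), which binds single-stranded mitochondrial DNA. Of 24 genes of RNA processing, tailing and turnover, 15 were above 0 and 9 below (median 0.01). Rmrp, also counted below among the structured small RNAs, had the smallest p of the 24 (0.93 ± 0.20, edgeR, unadjusted p = 0.00094). Slirp (-0.20 ± 0.10) came next by p, and with Lrpprc (0.007) it stabilises mitochondrial mRNAs.

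The genes that build and feed the mitochondrial ribosome were likewise split between the directions. Of 24 genes of rRNA modification and ribosome assembly, 10 were above 0 and 14 below (median -0.04). Mtg1, an assembly GTPase, had -0.15 ± 0.12, and Mrm3, an rRNA methyltransferase, 0.08 ± 0.08. Of 76 genes of mitochondrial ribosomal proteins, 31 were above 0 and 45 below (median -0.01), with Mrps12 at -0.15 ± 0.08 and Mrpl28 at 0.13 ± 0.07. Of 19 aminoacyl-tRNA synthetases, 6 were above 0 and 13 below (median -0.03). The leucine enzyme gene Lars2 had the smallest p in that list, with 613, 576 and 638 CPM in wild type against 816, 628 and 840.0 CPM in the knockout. Knockout replicate 2 lay among the wild-type libraries, and the log2 fold change was 0.32 ± 0.11 (edgeR, unadjusted p = 0.0133). Vars2, the valine enzyme gene, had -0.09 ± 0.06. Of 10 regulators of mitochondrial genes, 4 were above 0 and 6 below (median -0.03), with Myc at -0.31 ± 0.12 and Pprc1 at -0.08. No gene of these 6 lists passed with or without the block.

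The few nuclear-encoded RNAs without a poly(A) tail that had enough counts to be tested also had fitted changes above 0. Of 359 genes listed for cytosolic rRNA with a row of counts, 351 were not tested. The 8 tested genes were above 0, where 47.8% of all tested genes were above 0, and their median log2 fold change was 0.37. Among them Gm26917 (0.03 ± 0.09) and n-R5s151 (0.11 ± 0.35) differed little from 0. Gm23935 passed with the block (edgeR, adjusted p = 0.0295) and not without it. Gm42418, which overlaps ribosomal RNA sequence, had 6457, 7043 and 7874 CPM in the wild-type libraries and 11053, 6881 and 10594 CPM in those of the knockout. Its pairs gave 0.78, -0.03 and 0.43 on the log2 scale, pair 2 being the lowest as in the mitochondrial rRNAs. Over the 8 tested genes the medians in pairs 1 to 3 were 0.38, 0.25 and 0.42. The gene n-R5-8s1 had 80.4, 58.1 and 61.8 against 103, 114 and 168 CPM, with the largest ratio in pair 3. Of 15 structured small RNAs of the nucleus and cytosol with a row of counts, 10 had too few counts to be tested. The other 5 were above 0 (median 0.78), where 47.8% of all tested genes were above 0. Their medians in pairs 1 to 3 were 0.178, 0.948 and 1.165, so that here pair 1 was the lowest, unlike in the mitochondrial genes. Rny3 lay near the filter on low counts, with 0.59, 0.35 and 0.28 CPM in wild type against 0.50, 1.24 and 0.86 CPM in the knockout. Its higher knockout counts helped it to be tested, so the 5 values are not a test of direction. Rn7sk passed with the block (edgeR, adjusted p = 0.00869) and not without it. Rmrp, the RNA of an RNase that cuts mitochondrial and ribosomal precursors, had 0.93 ± 0.20 (edgeR, unadjusted p = 0.00094). The level of such RNAs is read as a sign of RNA and library handling. Its part in the mitochondrial result was not tested.

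**Figure D4:**
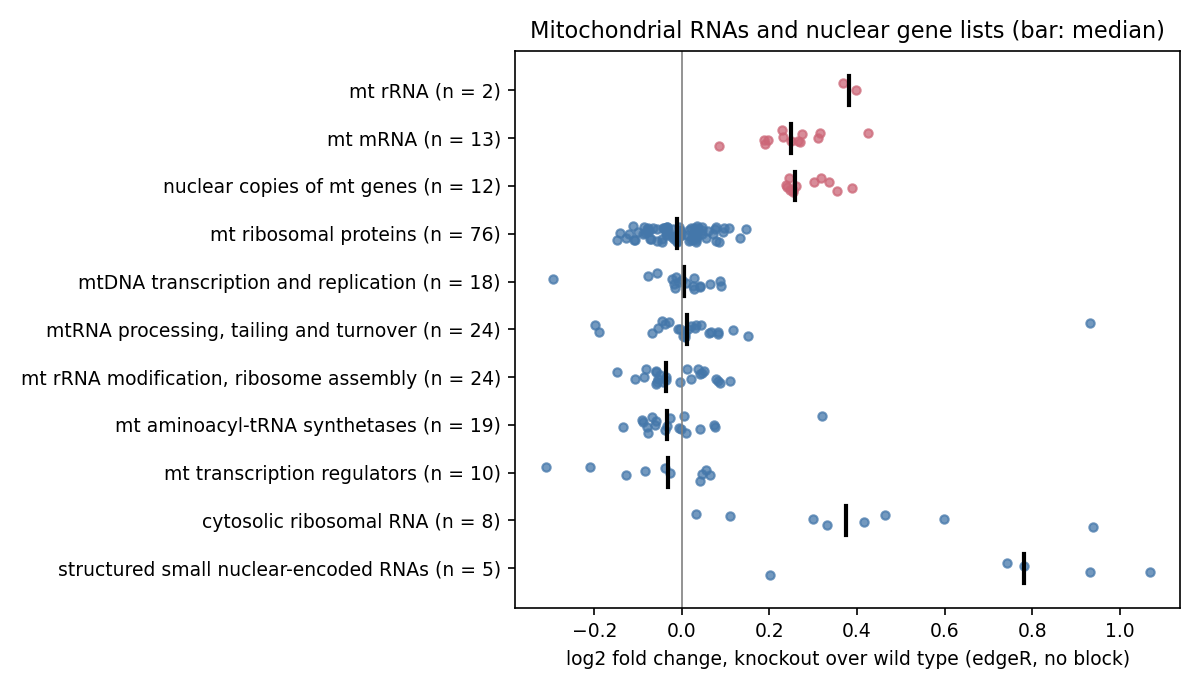
Log2 fold change of knockout over wild type (edgeR, without the block) for the mitochondrial rRNAs and mRNAs, their nuclear copies and the nuclear gene lists, one point per tested gene with the median as a bar. The rRNAs, the mRNAs, the copies, the cytosolic rRNAs and the structured small RNAs lie above 0, whereas the medians of the 6 nuclear lists that serve mitochondria lie between -0.04 and 0.01.

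The libraries held 21014060 to 22706296 counts, and effective library sizes differed from the totals by less than 1%. Ankrd31 had 84.9, 52.3 and 63.3 CPM in wild type against 40.8, 33.2 and 38.0 CPM in the knockout, so that the genotypes did not overlap (log2 fold change -0.84 ± 0.17, edgeR adjusted p = 1 without the block and 0.00505 with it). Summed germ cell markers were 2353 to 3156 CPM in wild type and 2610 to 3140 CPM in the knockout, and Sertoli cell markers 5973 to 6761 and 6471 to 6894 CPM. Summed Leydig cell markers ranged from 570 to 655 and from 468 to 1053 CPM, and those of peritubular myoid cells from 703 to 777 and 751 to 773 CPM. Markers of macrophages, endothelium and red blood cells overlapped between the genotypes as well. Markers of epididymis and rete epithelium were highest in wild-type replicate 3 (168 CPM, other libraries 77.5 to 96.2), and markers of post-meiotic germ cells stayed between 3.03 and 4.26 CPM, with 3 of 7 at 0. Like the mitochondrial mRNAs, the myoid sum was lowest in wild-type replicate 1, whereas the germ cell sum was highest in replicate 1 of each genotype. Not every germ cell marker followed that sum, since Zbtb16 and Gfra1 were lowest in replicate 1 of each genotype. The part of cell makeup in the mitochondrial result was not tested.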

How the data were processed

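Raw read counts per gene were deposited by the authors as 1 table for 6 libraries, without normalization. The submitters' processing notes name GSNAP, featureCounts 1.6.0 and bcl2fastq 2.19.1, with mm10; per the labels' protocols, RNA came from an RNeasy kit and libraries from a strand-specific kit. Spike-in rows (92, with 1 count in all) were left out, and 49412 of 49671 gene identifiers matched GENCODE M21.

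Tests used edgeR 4.0.16 under R 4.3.3 (TMM, filterByExpr, robust quasi-likelihood fit, two-sided, Benjamini-Hochberg adjustment over 18040 genes). The biological coefficient of variation was 10.3% in the main fit, which has no block, and 5.67% with the replicate number as a block. Replicates differed beyond counting noise (chi-square per degree of freedom 7.36 to 13.0). The labels do not tie numbers to litters or days, so p-values measure the spread between these samples. Deviations of same-numbered libraries correlated at 0.42, 0.26 and 0.28, each over 0.1. The main fit leaves this pairing out, and the blocked fit, which uses it, is given where it bears on a call. DESeq2 1.42.0, limma 3.58.1 voom, other scalings and filters, and fits without single libraries or pairs were alternatives. Sequences and 50-base windows were read from GENCODE M21 transcripts with Python 3.11.15. The edgeR fit was also run on simulated counts with known changes. Those changes were larger than the fitted changes of nearly all members, so that run does not speak to changes as small as theirs.

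Members and lists were chosen with earlier results of these data known. All rRNAs and mRNAs, the 4 most abundant tRNAs, the tested tRNAs, and the 2 members of each nuclear list with the smallest p were to be named; Lrpprc, Tfam, Polrmt, Gm42418, n-R5-8s1 and the copies with values were named after their values were seen, and the list of mitochondrial ribosomal proteins and the copy windows were added then.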

Additional observations from a re-analysis of the deposited data

How the results depend on the processing

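The mRNA, rRNA and tRNA sums stayed higher in the knockout under each alternative run. Leaving out each library in turn gave log2 ratios of 0.17 to 0.32 for mRNA, 0.30 to 0.45 for rRNA and 0.12 to 0.50 for tRNA, the lowest being without wild-type replicate 1 for mRNA and rRNA and without wild-type replicate 3 for tRNA. Of 304 values of single members under alternatives, 301 were higher and 3 reversed: mt-Tw (-0.017, up to 0.828 without wild-type replicate 2) and mt-Nd3 (-0.008, up to 0.201) without wild-type replicate 1, and mt-Nd3 (-0.028) in the fit with the replicate block without pair 1. With no filter on low counts the median over tRNAs was -0.217. As a share of nuclear counts only, the knockout level was 2.01% in place of 1.97%.

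Over all genes, 0 passed; 1 passed with no filter, 2 with DESeq2, 8 with the replicate block, 8 with the block and nuclear scaling, 63 with the block without pair 1 and 57 without pair 2. No blocked fit was made for the sums. Taken as the mean of the log2 ratios of the pairs in place of the ratio of means, they gave 0.26, 0.38 and 0.30 for mRNA, rRNA and tRNA. The replicate block changed no call of a member, except that 6 members passed without pair 2. With DESeq2 and voom, 12 and 13 of 17 members had an unadjusted p under 0.05 and 0 an adjusted one. Over all 18040 tested genes, 242 and 382 had such an unadjusted p. The tRNA values rest on 415 counts, and what made them so few was not tested. Counts of mt-Co1, mt-Nd4 and the 5 mRNAs with over 90% shared windows depend on how reads shared with nuclear copies were handled.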
